A study of Mus musculus with 8 samples.

Results

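The interleukin-6 family is a group of cytokines that signal through the shared receptor chain gp130, the product of Il6st. Each ligand reaches gp130 through a partner chain: interleukin-6 through Il6ra, interleukin-11 through Il11ra1, leukaemia inhibitory factor (Lif) through Lifr, and cardiotrophin-like cytokine factor 1 (Clcf1) through Cntfr and Lifr. Osmr is the partner chain for oncostatin M. Receptor engagement activates Janus kinases and the transcription factor STAT3, and STAT3 induces the feedback inhibitor Socs3, which binds gp130. In the mammary gland Lif is known as the activator of STAT3 at the onset of involution, and in bone marrow the family is known for the signals that pass between stromal cells, osteoblasts and osteoclasts.

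The genes described here were the rows of the deposited count table that carry the symbols Il6, Lif, Il11, Clcf1, Il6st, Il6ra, Lifr, Osmr and Il11ra1. They are 9 of the 23478 genes in the table, 4 of them ligands and 5 receptors. The series holds RNA sequencing counts of 8 mouse libraries in 4 groups, with 2 biological replicates a group per the labels. DCC IFN-gamma held disseminated cancer cells from the marrow of mice whose breast cancers had spread spontaneously, treated with interferon-gamma (IFN-gamma), a cytokine of T helper 1 cells. DCC control held the same kind of cells without the cytokine. TUBO is a single mouse breast cancer cell line, derived from a mammary carcinoma of a BALB-neuT mouse, and early lesion held primary cancer cells of early mammary tumours with neuT in their titles. The labels give the genotype of all 4 groups as WT. The sources used here do not give the strain, the age, the number of animals behind a library, or the dose and duration of IFN-gamma.

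The libraries held 15432210 to 30168475 gene counts. Levels are given as CPM, the counts scaled to a common TMM library size, and 3 counts, taken as the floor, equal 0.0953 to 0.183 CPM. Reads outside genes made up 49.2% in DCC control replicate 1 and 44.1% in early lesion replicate 2, against 18.3% to 31% in the other 6 libraries. A gene was called at an adjusted p under 0.05 in the quasi-likelihood test of edgeR, with p-values adjusted over 17069 genes by the Benjamini-Hochberg method, and fold changes are log2 values with their standard error (SE). With 2 libraries a group, these p-values measure the spread between the labelled replicates only. That spread was estimated over all 4 groups together. The chi-square per degree of freedom between replicates was 160 in DCC IFN-gamma, against 17.4 in DCC control, 33.5 in TUBO and 18.5 in early lesion. So the SE and p-values after IFN-gamma also draw on groups whose replicates lay closer together. Where a library is left out, the p-value is no check on the spread of the group left with 1 library. All 9 family genes passed the filter on low counts, Il6 through the DCC IFN-gamma libraries.

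The labelled cell types were set against marker genes. The 12 epithelial markers summed to 0.367 and 0.459 CPM in DCC IFN-gamma and 6.88 and 4.32 CPM in DCC control, against 5976.0 and 6417.3 CPM in TUBO and 3256.2 and 3072.7 CPM in early lesion. Epcam, Krt5, Krt14, Cldn3, Cldn4, Grhl2, Esrp1 and Elf3 had no count in either DCC IFN-gamma library, so the epithelial identity of the DCC libraries is not borne out by these genes. The 12 fibroblast and stromal markers summed to 761 and 1220.4 CPM in DCC IFN-gamma and 7567.1 and 8743.5 CPM in DCC control, against 16.5 to 33.9 CPM over the TUBO and early lesion libraries. Erbb2, the gene homologous to the neu oncogene, stood at 35 and 39 CPM in DCC IFN-gamma and 21.2 and 23.3 CPM in DCC control, against 258 and 245 CPM in TUBO and 245 and 238 CPM in early lesion. The DCC groups are named here by their labels. In bulk RNA, fewer cells of a type and less RNA per cell cannot be told apart.

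After IFN-gamma 2 of the 4 ligand genes rose and 4 of the 5 receptor genes fell. Lif and Il11 rose, while the receptor genes Il6st, Lifr, Osmr and Il11ra1 fell. The remaining members, Il6, Clcf1 and Il6ra, had higher values after IFN-gamma that did not pass the test. Thus 2 of 9 members were called higher and 4 of 9 lower, where 12.6% of all genes tested were called higher and 8.83% lower (21.4% in either direction). Il6, which passed the filter through the treated group alone, is left out of the next counts and medians. The libraries of the groups did not overlap for any of the other 8, where 66.1% of all genes did not. The median log2 fold change was 2.79 over the other 3 ligands and -1.42 over the 5 receptors, beside -0.20 over all genes tested. Without the libraries with most reads outside genes, replicate 1 of DCC control and replicate 2 of early lesion, 4 of the 9 were called: Lif, Il6st, Lifr and Osmr.

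Lif (chromosome 11, bases 4257557 to 4272514 of GRCm38, plus strand) had the largest change of the 9. It measured 36.6 and 85.8 CPM in DCC IFN-gamma, against 2.01 and 2.5 CPM in DCC control. Both treated libraries lay far above both controls, and the log2 fold change was 4.75 ± 0.42 (SE; edgeR adjusted p = 1.60e-04), a 26.8-fold rise. Without DCC IFN-gamma replicate 2 the log2 change was 4.04.

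Il11 (chromosome 7, bases 4772373 to 4782859, minus strand), whose product acts on stromal and bone-forming cells, measured 41.2 and 145 CPM in DCC IFN-gamma, against 11.2 and 15.6 CPM in DCC control. The groups did not overlap, and the treated libraries were themselves 3.51-fold apart. The log2 fold change was 2.79 ± 0.61 (SE; edgeR adjusted p = 0.023). It was 3.43 without DCC IFN-gamma replicate 1 and 1.66 without replicate 2, and leaving out replicate 1 or 2 of DCC control ended the call (adjusted p = 0.163 and 0.183).

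Clcf1 (chromosome 19, bases 4214238 to 4223490, plus strand) measured 14 and 58.1 CPM in DCC IFN-gamma, against 7.43 and 7.45 CPM in DCC control. The controls were nearly equal, while the treated libraries were 4.15-fold apart. Its log2 fold change of 2.28 ± 0.77 (SE) did not pass the test (edgeR adjusted p = 0.0834). It was 2.97 without DCC IFN-gamma replicate 1 and 0.96 without replicate 2. Over all alternatives its adjusted p lay between 1.32e-08, with no filter on low counts, and 0.416. In the annotation, 8.17% of its exonic bases lie in AC109138.7 on the same strand, a gene without a row in the table.

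Il6 (chromosome 5, bases 30013114 to 30019981, plus strand), the founding cytokine of the family, had the fewest counts of the 9 in DCC IFN-gamma. It had 39 and 38 counts in DCC IFN-gamma, equal to 1.43 and 1.59 CPM, against 12 and 0 counts in DCC control, equal to 0.73 and 0 CPM. The log2 fold change of 2.06 ± 2.20 (SE) did not pass the test (edgeR adjusted p = 0.518). Il6 passed the filter on low counts through the treated libraries alone, so no separation of its libraries is counted here.

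**Figure D1:**
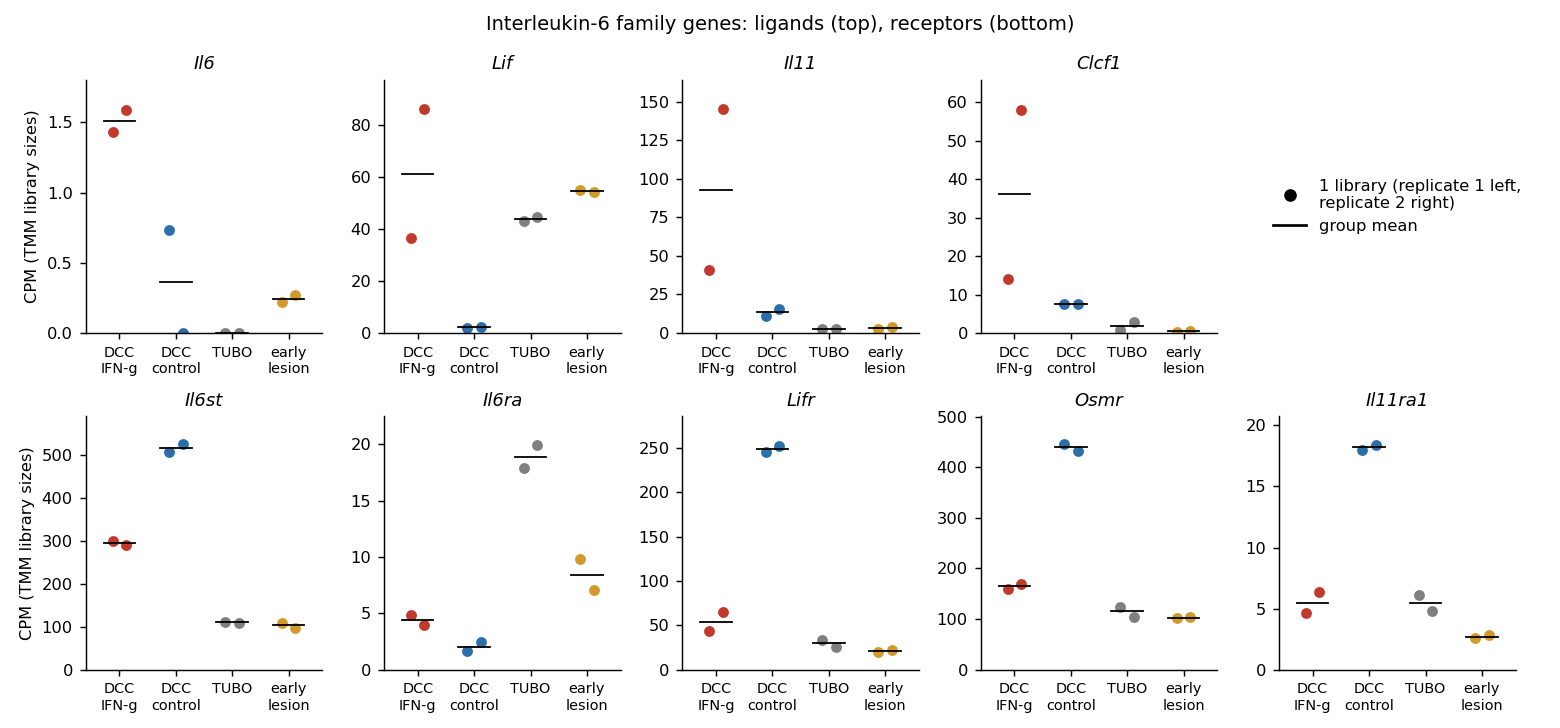
Levels of the 4 ligand genes (top row) and 5 receptor genes (bottom row) in CPM, 1 panel per gene with its own axis from 0. Points are single libraries and lines group means. Lif reaches 36.6 and 85.8 CPM in DCC IFN-gamma and lies at 2.01 and 2.5 CPM in DCC control, while Il6st, Lifr, Osmr and Il11ra1 are highest in DCC control.

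DCC IFN-gamma replicate 2 exceeded replicate 1 in the 3 ligand genes other than Il6: 2.35-fold for Lif, 3.51-fold for Il11 and 4.15-fold for Clcf1. Between these replicates 10.5%, 4.56% and 3.32% of the genes tested differed by more than Lif, Il11 and Clcf1. Among the receptor genes Lifr (43.7 and 64.9 CPM) and Il11ra1 (4.62 and 6.38 CPM) were also higher in replicate 2, and Il6ra was lower (4.88 and 4 CPM). Between these replicates 30.3%, 38.4% and 54.7% of the genes tested differed by more than Lifr, Il11ra1 and Il6ra. Il6st and Osmr lay closest, at 300.1 and 289.7 CPM and at 159 and 170.2 CPM. Of the osteoblast and cartilage markers, Spp1, encoding osteopontin, measured 9920.9 and 24885.5 CPM in DCC IFN-gamma replicates 1 and 2, against 13477.0 and 18833.5 CPM in DCC control. The other 8 genes of that list summed to 367 and 780.4 CPM in DCC IFN-gamma, against 2518.4 and 2879.7 CPM in DCC control. Most of the treated sums was Sox9, at 231 and 548 CPM. Sox9 measured 164 and 184 CPM in DCC control and was not called higher after IFN-gamma. Ibsp, encoding bone sialoprotein, was lower in treated replicate 2 (7.29 and 4.34 CPM). Their part in the ligand values was not tested.

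Among the receptors, Il6st (chromosome 13, bases 112464070 to 112510086, plus strand), encoding gp130, measured 300.1 and 289.7 CPM in DCC IFN-gamma, against 507 and 524 CPM in DCC control. The groups were well apart with little spread, and Il6st fell by 0.81 ± 0.14 (SE) on the log2 scale (edgeR adjusted p = 0.00264), the smallest of the called changes among the members.

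Lifr (chromosome 15, bases 7090614 to 7197489, plus strand), the partner chain for Lif, measured 43.7 and 64.9 CPM in DCC IFN-gamma, against 246 and 253 CPM in DCC control. It fell by 2.20 ± 0.21 (SE) on the log2 scale (edgeR adjusted p = 6.89e-05). Thus the receptor chain was 4.6-fold lower in the libraries in which its ligand was 26.8-fold higher.

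Osmr, which lies on the same chromosome (bases 6813577 to 6874969, minus strand), measured 159 and 170.2 CPM in DCC IFN-gamma, against 446 and 432 CPM in DCC control. It fell by 1.42 ± 0.15 (SE) on the log2 scale (edgeR adjusted p = 1.23e-04), and its libraries did not overlap.

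Il11ra1 (chromosome 4, bases 41699989 to 41769474, plus strand) measured 4.62 and 6.38 CPM in DCC IFN-gamma, against 18 and 18.4 CPM in DCC control. It fell by 1.73 ± 0.34 (SE) on the log2 scale (edgeR adjusted p = 0.00555). Without replicate 1 of DCC control and replicate 2 of early lesion the call ended (adjusted p = 0.0553). Its values are uncertain, because the near-identical copy Il11ra2 had no count in any library and reads that match several places are counted on no gene.

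Il6ra (chromosome 3, bases 89864059 to 89913196, minus strand) differed from the other receptor genes. It measured 4.88 and 4 CPM in DCC IFN-gamma, against 1.64 and 2.46 CPM in DCC control. The treated libraries were both higher, but the log2 fold change of 1.10 ± 0.37 (SE) did not pass the test (edgeR adjusted p = 0.0567). It passed in DESeq2 (adjusted p = 0.0427) and with at least 50 counts in at least 2 libraries (adjusted p = 0.0497). In the other alternatives that kept all libraries it did not pass.

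The cell type markers also differed between these groups. Of 11 macrophage and monocyte markers tested 9 were called higher and none lower after IFN-gamma, with sums of 1474.8 and 1094.0 CPM in DCC IFN-gamma, against 124 and 124 CPM in DCC control. No macrophage marker was at 0 in either group. Of 11 fibroblast and stromal markers 2 were called higher and 6 lower, with the sums given above. Of 9 osteoblast and cartilage markers none was called higher and 4 lower, with a median log2 fold change of -2.61. Alpl, the alkaline phosphatase of bone-forming cells, averaged 61.5 CPM in DCC IFN-gamma, against 1428.9 CPM in DCC control. Ibsp averaged 5.82 CPM in DCC IFN-gamma, against 522 CPM in DCC control, and the remaining called markers were Runx2 and Col2a1. Of 11 epithelial markers none was called higher and 5 lower, in libraries with the low sums given above. Their part in the falls of Il6st, Lifr, Osmr and Il11ra1 and in the rises of Lif and Il11 was not tested. Under upper quartile factors, which moved the median of all genes by -0.196 on the log2 scale, 1526 genes were called higher and 2221 lower, beside 2148 higher and 1508 lower under TMM. The calls of the 9 family genes were the same under both.

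**Figure D2:**
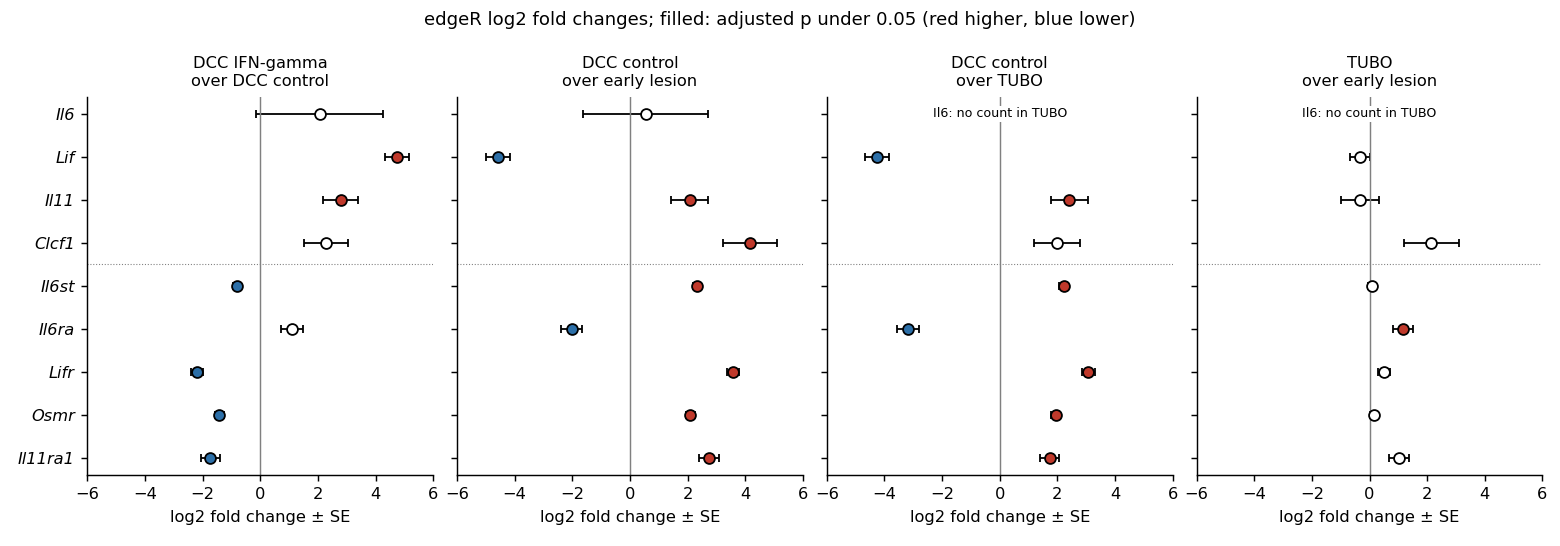
Log2 fold changes of the 9 genes (rows, ligands above the dotted line) in the 4 comparisons (panels), with bars of ± 1 SE from edgeR. Filled points have an adjusted p under 0.05, red for higher and blue for lower. In DCC IFN-gamma over DCC control Lif lies at 4.75 and Lifr at -2.20, and in TUBO over early lesion Il6ra alone is filled. Il6 is not drawn where TUBO had no count.

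The DNA just before the starts of the ligand genes is shown as a description. Jun and Fosl1 encode subunits of the transcription factor AP-1. Both rose after IFN-gamma, as did Lif and Il11 (values of Jun and Fosl1 stand with the regulators of the ligand genes). Outside the treated libraries, Lif averaged 43.6 CPM in TUBO, 54.5 in early lesion and 2.25 in DCC control. Fosl1 averaged 0.449, 1.53 and 89.8 CPM in the same groups, and Jun 66.9, 47 and 41.7 CPM. The part of AP-1 in the ligand values was not tested. RefSeq promoter windows on GRCm38.p6 were matched for 8 of the 9 genes, with 4 windows for ligand and 7 for receptor genes, each the 250 bases before an annotated start. Capitals mark matches on either strand to AP-1 (TGANTCA), NF-kB or C/EBP (TTGCNNAA) motifs. The windows of Lif (chr11:4257318-4257567, plus strand), Il6 (chr5:30012864-30013113, plus strand), the downstream start of Il11 (chr7:4778142-4778391, minus strand) and, as a receptor window without a match, Il6st (chr13:112463820-112464069, plus strand) read 5′ to 3′ as follows.
Lif: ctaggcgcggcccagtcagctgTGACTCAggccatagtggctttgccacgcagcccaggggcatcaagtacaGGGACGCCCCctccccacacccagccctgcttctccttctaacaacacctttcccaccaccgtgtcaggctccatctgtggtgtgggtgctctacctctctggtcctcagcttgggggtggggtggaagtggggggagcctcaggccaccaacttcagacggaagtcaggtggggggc
Il6: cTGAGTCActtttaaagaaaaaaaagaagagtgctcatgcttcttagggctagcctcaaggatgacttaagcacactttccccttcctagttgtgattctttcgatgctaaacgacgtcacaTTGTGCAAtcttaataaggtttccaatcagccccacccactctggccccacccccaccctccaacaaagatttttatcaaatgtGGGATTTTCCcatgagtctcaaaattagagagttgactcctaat
Il11: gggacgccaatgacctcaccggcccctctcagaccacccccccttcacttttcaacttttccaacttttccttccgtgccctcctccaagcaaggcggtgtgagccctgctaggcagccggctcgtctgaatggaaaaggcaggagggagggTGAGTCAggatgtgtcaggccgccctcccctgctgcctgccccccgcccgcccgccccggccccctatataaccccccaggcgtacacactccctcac
Il6st: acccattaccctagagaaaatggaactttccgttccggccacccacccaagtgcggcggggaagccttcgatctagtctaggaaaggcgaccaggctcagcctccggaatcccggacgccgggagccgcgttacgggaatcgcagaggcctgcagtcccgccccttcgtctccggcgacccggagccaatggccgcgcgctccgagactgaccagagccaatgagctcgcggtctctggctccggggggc

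An AP-1 match stood in 3 of the 4 ligand windows and in 0 of the 7 receptor windows, beside 6.75% of 32851 windows over all genes. It began 228 bases before the start of Lif, 249 bases before that of Il6 and 98 bases before the downstream start of Il11. An NF-kB match, held by 7.25% of all windows, began 178 bases before the start of Lif and 44 bases before that of Il6. A C/EBP match, held by 9.56% of all windows, was found in the Il6 window, beginning 128 bases before the start. No window of the family held the CRE (TGACGTCA), GAS (TTCNNNGAA) or ISRE core motifs, which 1.55%, 7.02% and 2.98% of all windows held. A match of letters is a description of the window and not a measured binding site.

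Compared with the early lesion cells, DCC control cells held more RNA of most of the receptor genes and far less Lif. Il6st, Lifr, Osmr, Il11ra1, Il11 and Clcf1 were called higher and Lif and Il6ra lower. That is 6 of 9 members higher and 2 of 9 lower, where 19.1% of all genes tested were called higher and 18.7% lower (37.7% in either direction). The groups did not overlap for 8 of the 9, as for 70.4% of all genes. The median log2 fold change of the 9 was 2.09, beside 0.23 over all genes tested. Without the same pair of libraries 6 of the 9 were called, and the calls of Il11 (adjusted p = 0.0886) and Clcf1 (adjusted p = 0.1) ended.

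Lif measured 2.01 and 2.5 CPM in DCC control, against 54.9 and 54.1 CPM in early lesion. The replicates of each group lay close together, and Lif was 23.9-fold lower in DCC control, with a log2 fold change of -4.58 ± 0.42 (SE; edgeR adjusted p = 5.22e-05). Il11 was the reverse, with 11.2 and 15.6 CPM in DCC control and 2.35 and 4.1 CPM in early lesion. Its log2 fold change was 2.07 ± 0.64 (SE; edgeR adjusted p = 0.0444), and the call was lost without any single library of either group (adjusted p = 0.0678 to 0.286).

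Clcf1 measured 7.43 and 7.45 CPM in DCC control, against 0.35 and 0.491 CPM in early lesion. The log2 fold change was 4.15 ± 0.94 (SE; edgeR adjusted p = 0.012), and here too leaving out any single library of the groups compared ended the call (adjusted p = 0.0553 to 0.106). Il6 was near the floor in both groups, with 12 and 0 counts in DCC control and 7 and 6 counts in early lesion, and was not called (edgeR adjusted p = 0.913).

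Il6st measured 507 and 524 CPM in DCC control, against 109 and 98 CPM in early lesion, a log2 fold change of 2.32 ± 0.15 (SE; edgeR adjusted p = 9.31e-07). Lifr measured 246 and 253 CPM in DCC control, against 20.3 and 21.8 CPM in early lesion, a log2 fold change of 3.57 ± 0.22 (SE; edgeR adjusted p = 7.77e-07). Osmr measured 446 and 432 CPM in DCC control, against 103 and 104 CPM in early lesion, a log2 fold change of 2.09 ± 0.15 (SE; edgeR adjusted p = 2.22e-06). For these 3 signalling chains the replicates lay close together and the groups were 4.25-fold to 11.9-fold apart.

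Il11ra1 measured 18 and 18.4 CPM in DCC control, against 2.57 and 2.85 CPM in early lesion, 6.7-fold higher (log2 fold change 2.74 ± 0.36 SE, edgeR adjusted p = 1.61e-04). Il6ra went the other way, with 1.64 and 2.46 CPM in DCC control and 9.79 and 7.09 CPM in early lesion. Il6ra was 4.08-fold lower in DCC control (log2 fold change -2.03 ± 0.37 SE, edgeR adjusted p = 0.00137). So the chain that confers interleukin-6 binding and the chains that serve Lif, oncostatin M and interleukin-11 differed in opposite directions.

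Beside these values, 10 of 11 fibroblast and stromal markers tested and 7 of 9 osteoblast and cartilage markers were called higher in DCC control than in early lesion, and 10 of 11 epithelial markers were called lower. The osteoblast and cartilage markers summed to 15995.5 and 21713.3 CPM in DCC control, against 4579.5 and 3699.2 CPM in early lesion. Most of these sums was Spp1. The other 8 genes summed to 2518.4 and 2879.7 CPM in DCC control, against 180.5 and 159 CPM in early lesion. In the same comparison 8 of 11 macrophage and monocyte markers were called higher and 1 lower. Their part in the differences of the family genes was not tested.

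The comparison of DCC control with TUBO shares its DCC control libraries with the one above. Il6st, Lifr, Osmr, Il11ra1 and Il11 were called higher in DCC control and Lif and Il6ra lower. Thus 5 of 9 members were higher and 2 of 9 lower, where 22.1% of all genes tested were called higher and 19.9% lower (42% in either direction). For 8 of the 9 the groups did not overlap, as for 76.5% of all genes. The median log2 fold change of the 9 was 1.94, with Il6 computed against a floor of 3 counts in TUBO, beside 0.37 over all genes tested. All 7 calls remained without the same pair of libraries.

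Lif measured 2.01 and 2.5 CPM in DCC control, against 42.8 and 44.4 CPM in TUBO, a log2 fold change of -4.26 ± 0.41 (SE; edgeR adjusted p = 7.07e-05). Il11 measured 11.2 and 15.6 CPM in DCC control, against 2.72 and 2.33 CPM in TUBO, a log2 fold change of 2.41 ± 0.65 (SE; edgeR adjusted p = 0.0252). For Il11 the call was lost without any single library of the 2 groups (adjusted p = 0.0688 to 0.186). Clcf1 measured 7.43 and 7.45 CPM in DCC control, against 0.793 and 2.94 CPM in TUBO. This 4-fold difference (SE 0.80 on the log2 scale) did not pass the test (edgeR adjusted p = 0.0886). The log2 change was 3.22 without TUBO replicate 2 and 1.40 without replicate 1. It passed in 4 of 12 alternatives, and over all 12 its adjusted p lay between 1.29e-06, with no filter on low counts, and 0.294. Il6 had 12 and 0 counts in DCC control and no count in either TUBO library, and was not called (edgeR adjusted p = 0.115).

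Il6st stood at 507 and 524 CPM in DCC control and 112 and 109 CPM in TUBO, with a log2 fold change of 2.22 ± 0.15 (SE; edgeR adjusted p = 1.08e-06). Lifr stood at 246 and 253 CPM in DCC control and 33.2 and 26.2 CPM in TUBO, with a log2 fold change of 3.07 ± 0.22 (SE; edgeR adjusted p = 1.72e-06). Osmr was 3.84-fold higher, with 446 and 432 CPM in DCC control and 124 and 105 CPM in TUBO (log2 fold change 1.94 ± 0.15 SE, edgeR adjusted p = 3.31e-06). As against the early lesion cells, the signalling chains were all higher in DCC control, with no overlap of libraries.

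Il11ra1 stood at 18 and 18.4 CPM in DCC control and 6.14 and 4.84 CPM in TUBO, with a log2 fold change of 1.73 ± 0.34 (SE; edgeR adjusted p = 0.00229). Il6ra stood at 1.64 and 2.46 CPM in DCC control and 17.9 and 19.9 CPM in TUBO, 9.11-fold lower in DCC control (log2 fold change -3.19 ± 0.38 SE, edgeR adjusted p = 7.64e-05). Of the markers, all 11 fibroblast and stromal genes tested were called higher in DCC control and 9 of 11 epithelial genes lower. In this comparison 9 of 11 macrophage and monocyte markers were called higher and 1 lower, and C1qa, Fcgr1 and Itgam had no count in TUBO. Their part in these differences was not tested.

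Between TUBO and early lesion cells 1 of the 9 family genes was called. Il6ra was higher in TUBO, and the other 8 genes were not called in either direction, where 11.4% of all genes tested were called higher and 12.7% lower (24.1% in either direction). The libraries did not overlap for 8 of the 9 genes, as for 61.8% of all genes. Il6ra measured 17.9 and 19.9 CPM in TUBO, against 9.79 and 7.09 CPM in early lesion. Its log2 fold change was 1.16 ± 0.34 (SE; edgeR adjusted p = 0.0337), and the call was lost without any single library of these groups (adjusted p = 0.0697 to 0.217). Lif measured 42.8 and 44.4 CPM in TUBO, against 54.9 and 54.1 CPM in early lesion, a log2 fold change of -0.32 ± 0.34 (SE; edgeR adjusted p = 0.504). Il6st measured 112 and 109 CPM in TUBO and 109 and 98 CPM in early lesion, a log2 fold change of 0.09 ± 0.14 (SE; edgeR adjusted p = 0.653).

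Il11ra1 and Lifr had higher values in TUBO than in early lesion that did not pass the test, with log2 fold changes of 1.02 ± 0.35 (SE; edgeR adjusted p = 0.0579) and 0.50 ± 0.20 (SE; edgeR adjusted p = 0.106). Clcf1 stood at 0.793 and 2.94 CPM in TUBO and 0.35 and 0.491 CPM in early lesion (edgeR adjusted p = 0.156). Il11 overlapped between the groups, with 2.72 and 2.33 CPM in TUBO and 2.35 and 4.1 CPM in early lesion. Osmr lay at 124 and 105 CPM in TUBO and 103 and 104 CPM in early lesion, a log2 fold change of 0.15 ± 0.15 (SE; edgeR adjusted p = 0.468). Il6 had no count in TUBO and 7 and 6 counts in early lesion (edgeR adjusted p = 0.183).

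Set in order over the 4 groups, Il6st, Lifr, Osmr and Il11ra1 shared the same order, with mean CPM highest in DCC control, then DCC IFN-gamma, TUBO and early lesion. In Il6st, Lifr and Osmr no neighbouring groups overlapped, while for Il11ra1 the DCC IFN-gamma and TUBO libraries did. The step from TUBO to early lesion was not called for Il6st, Lifr or Osmr. It was small for Il6st and Osmr (log2 fold change 0.09 and 0.15), which changed sign without TUBO replicate 1 (-0.03 and -0.08). In that comparison 61.8% of all genes did not overlap. Il6ra ran from TUBO over early lesion and DCC IFN-gamma to DCC control with no overlap. Lif was highest in DCC IFN-gamma, where its libraries bracketed those of early lesion, followed by TUBO and DCC control. Il11 and Clcf1 were highest in DCC IFN-gamma and next in DCC control. For Il11 the lower groups, early lesion and TUBO, overlapped. DCC IFN-gamma was not tested against TUBO or early lesion.

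To compare levels between genes, CPM was divided by the kilobases (kb) of merged exons in GENCODE M21. On this scale the 4 ligand genes together measured 32.5 and 105 CPM per kb in DCC IFN-gamma and 8.1 and 10.03 in DCC control, against 11.4 and 12.1 in TUBO and 13.9 and 14.6 in early lesion. Lif made up 25.9% and 18.8% of that sum in DCC IFN-gamma and 5.7% and 5.72% in DCC control, against 86.6% and 84.4% in TUBO and 90.6% and 84.9% in early lesion. Il11 made up 61% and 66.1% in DCC IFN-gamma and 66.5% and 74.8% in DCC control, against 11.5% and 9.25% in TUBO and 8.11% and 13.5% in early lesion. Of these 4 ligand genes, Il11 thus made up most in the DCC libraries and Lif most in TUBO and early lesion. Ctf1, the ligand gene of cardiotrophin-1, is not among the 4. It measured 8.19 and 8.75 CPM per kb in early lesion and 4.65 and 2.91 in TUBO. In DCC IFN-gamma Ctf1 measured 0.342 and 1.07 CPM per kb, and in DCC control 1.77 and 1.54.

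The 5 receptor genes together measured 45.8 and 48.1 CPM per kb in DCC IFN-gamma and 109.5 and 111 in DCC control, against 26.8 and 24.3 in TUBO and 21.9 and 20.9 in early lesion. Per kb, Il6st led the receptors in every group on the mean, at 26.6 CPM per kb in DCC IFN-gamma, 46.4 in DCC control, 9.94 in TUBO and 9.32 in early lesion. Osmr came next, at 13.6, 36.3, 9.45 and 8.54 CPM per kb in the same groups. In TUBO replicate 1 Osmr stood slightly above Il6st, at 10.3 against 10.1 CPM per kb. Il6ra was the lowest receptor gene per kb in both DCC groups, at 0.514 in DCC IFN-gamma and 0.237 in DCC control.

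**Figure D3:**
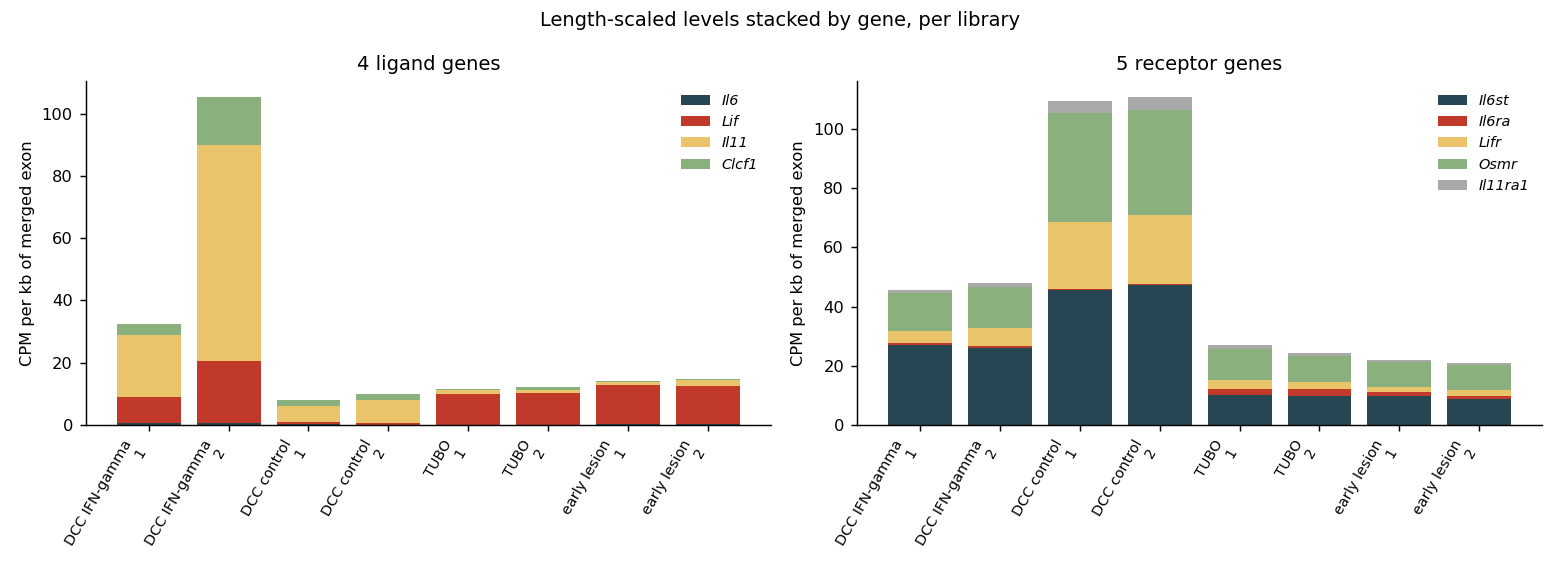
Length-scaled levels (CPM per kb of merged exon) of the 4 ligand genes (left) and 5 receptor genes (right), stacked by gene, with 1 bar per library. The ligand sum is 32.5 and 105 in DCC IFN-gamma, mostly Il11, and at most 14.6 in the other libraries, where TUBO and early lesion show mostly Lif. The receptor sum is 109.5 and 111 in DCC control and 45.8 and 48.1 in DCC IFN-gamma.

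No library held more than 16 CPM of any of the 10 other ligands, soluble partners and receptors of the family described here. That highest value was Ctf1 in an early lesion library. Ctf1, encoding cardiotrophin-1, measured 0.623 and 1.96 CPM in DCC IFN-gamma and 3.23 and 2.81 CPM in DCC control, against 8.48 and 5.3 CPM in TUBO and 14.9 and 16 CPM in early lesion. It was called lower in DCC control than in early lesion (log2 fold change -2.36 ± 0.52 SE, edgeR adjusted p = 0.00469; 0.0736 without replicate 1 of DCC control and replicate 2 of early lesion). After IFN-gamma its log2 fold change of -1.23 ± 0.54 (SE) did not pass the test (edgeR adjusted p = 0.135). It was -2.22 without DCC IFN-gamma replicate 2 and -0.62 without replicate 1. Ebi3, a subunit shared by other cytokines of the wider family, stood at 3.59 and 2.79 CPM in DCC IFN-gamma and 0.243 and 0.871 CPM in DCC control, and was not called (edgeR adjusted p = 0.307).

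Osm, Ctf2, Cntf, Il27, Cntfr, Il27ra and Il31ra were at or under 2.18 CPM in every library. Cntfr, the chain that Clcf1 needs beside Lifr and gp130, measured 0.257 and 0.167 CPM in DCC IFN-gamma and 0.0609 and 2.18 CPM in DCC control, so the control value rested on replicate 2. Il27ra, the partner of gp130 in the interleukin-27 receptor, was called higher in DCC control, at 1.03 and 1.43 CPM, than in TUBO, where it had no count (edgeR adjusted p = 0.0475). That call was lost without any single library of these groups (adjusted p = 0.0833 to 0.127). After IFN-gamma none of the 7 other family genes tested was called, beside 21.4% of all genes tested. Apart from Ctf1, their SE lay between 1.69 and 3.69 on the log2 scale, so large changes could go uncalled.

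The kinases and transducers below the receptors were followed next. After IFN-gamma 3 of 10 were called higher and 1 lower, beside 12.6% and 8.83% of all genes tested, and the median log2 fold change was 0.28. Jak1, the kinase that gp130 and the IFN-gamma receptor share, measured 311 and 344 CPM in DCC IFN-gamma, against 192 and 210.5 CPM in DCC control (log2 fold change 0.70, edgeR adjusted p = 0.00683). Leaving out DCC control replicate 1 ended the Jak1 call (adjusted p = 0.074, or 0.141 with early lesion replicate 2 left out as well). Stat3 stands outside the naming rule and is given for its role: it measured 155 and 206 CPM in DCC IFN-gamma, against 129 and 132 CPM in DCC control. Its log2 fold change of 0.47 ± 0.16 (SE) did not pass the test (edgeR adjusted p = 0.0686). It was 0.66 without DCC IFN-gamma replicate 1 and 0.29 without replicate 2. In DESeq2 the Stat3 change passed (adjusted p = 0.0378).

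Gab1, an adaptor of gp130 signalling towards the MAP kinases, was the member of that list called lower, at 16.2 and 15.9 CPM in DCC IFN-gamma against 25.1 and 23.4 CPM in DCC control. Its log2 fold change was -0.60 (edgeR adjusted p = 0.0185), and the call ended without replicate 1 or 2 of DCC control or replicate 2 of DCC IFN-gamma (adjusted p = 0.0501 to 0.116). Of 10 feedback inhibitors 6 were called higher and none lower after IFN-gamma, beside 12.6% and 8.83% of all genes tested. Socs3 measured 107 and 353 CPM in DCC IFN-gamma, against 34.9 and 38.2 CPM in DCC control (log2 fold change 2.65 ± 0.56 SE, edgeR adjusted p = 0.0197). As with the ligands, its replicate 2 was well above replicate 1, by 3.3-fold. The Socs3 change was 3.27 without DCC IFN-gamma replicate 1 and 1.58 without replicate 2, and leaving out replicate 1 or 2 of DCC control ended its call (adjusted p = 0.142 and 0.213).

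Socs1, which acts mainly on the IFN-gamma receptor kinases, measured 70.7 and 99.3 CPM in DCC IFN-gamma, against 24.7 and 22.5 CPM in DCC control (log2 fold change 1.85 ± 0.42 SE, edgeR adjusted p = 0.0179). That call ended without replicate 1 or 2 of DCC control or replicate 2 of DCC IFN-gamma (adjusted p = 0.0973 to 0.176). Ptpn6, a phosphatase that is typical of blood cells, measured 33.1 and 36.4 CPM in DCC IFN-gamma, against 1.64 and 2.93 CPM in DCC control (log2 fold change 3.89, edgeR adjusted p = 1.36e-05). Beside it, 4 of 8 pan-leukocyte markers were called higher and none lower, with sums of 570.4 and 521 CPM in DCC IFN-gamma and 68.4 and 60.5 CPM in DCC control. Ptpn6 also measured 20.1 and 21.9 CPM in TUBO and 24.8 and 26.4 CPM in early lesion. In TUBO 5 of the 8 pan-leukocyte markers had no count. The part of these markers in the Ptpn6 value was not tested.

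Of 25 genes known as STAT3 targets, 13 were called higher and none lower after IFN-gamma, beside 12.6% and 8.83% of all genes tested. The median log2 fold change of the 25 was 0.93. Fgl2, a fibrinogen-like protein, measured 81.9 and 55.1 CPM in DCC IFN-gamma, against 1.7 and 0.594 CPM in DCC control (log2 fold change 5.97, edgeR adjusted p = 0.00158; 6.84 and 5.33 without DCC control replicate 1 and 2). Icam1, an adhesion molecule, measured 142 and 149 CPM in DCC IFN-gamma, against 2.92 and 4.16 CPM in DCC control (log2 fold change 5.34, edgeR adjusted p = 4.40e-06). Fos, an AP-1 subunit, measured 32.9 and 249.9 CPM in DCC IFN-gamma, against 6.76 and 6.34 CPM in DCC control (log2 fold change 4.43 ± 0.93 SE, edgeR adjusted p = 0.0195). Its treated replicates were 7.6-fold apart, in the same direction as those of Lif, Il11 and Clcf1. The Fos change was 5.26 without DCC IFN-gamma replicate 1 and 2.37 without replicate 2, and leaving out replicate 1 or 2 of DCC control ended its call (adjusted p = 0.14 and 0.26).

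Of 13 regulators of the decay and transcription of the ligand mRNAs, 6 were called higher and none lower after IFN-gamma. Over all genes tested 12.6% were called higher and 8.83% lower. Jun measured 487 and 971 CPM in DCC IFN-gamma, against 41.2 and 42.3 CPM in DCC control (log2 fold change 4.13 ± 0.31 SE, edgeR adjusted p = 5.62e-05). Fosl1 measured 1372.6 and 1013.9 CPM in DCC IFN-gamma, against 93.6 and 86.1 CPM in DCC control (log2 fold change 3.73 ± 0.26 SE, edgeR adjusted p = 1.41e-05). These AP-1 genes were high in both treated libraries, Jun more in replicate 2 and Fosl1 more in replicate 1. Zfp36, which encodes an RNA-binding protein that destabilises cytokine mRNAs, measured 173 and 469 CPM in DCC IFN-gamma, against 30.3 and 30.4 CPM in DCC control (log2 fold change 3.40 ± 0.45 SE, edgeR adjusted p = 0.00296). The Zfp36 change was 2.55 without DCC IFN-gamma replicate 2, and its call ended without replicate 2 of DCC control (adjusted p = 0.0666).

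Adam17, the protease that sheds the interleukin-6 receptor, and Rhbdf2, which brings Adam17 to the cell surface, were called higher after IFN-gamma. They were 2 of 5 shedding and sorting genes, and none was called lower, beside 12.6% higher and 8.83% lower over all genes tested. Rhbdf2 measured 14.2 and 15.9 CPM in DCC IFN-gamma, against 4.14 and 3.64 CPM in DCC control (log2 fold change 1.95 ± 0.22 SE, edgeR adjusted p = 1.97e-04). Adam17 measured 98.9 and 104 CPM in DCC IFN-gamma, against 60.2 and 74.1 CPM in DCC control (log2 fold change 0.60 ± 0.16 SE, edgeR adjusted p = 0.0245). The Adam17 call ended without replicate 1 of DCC control (adjusted p = 0.196) and under upper quartile factors (adjusted p = 0.0849).

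**Figure D4:**
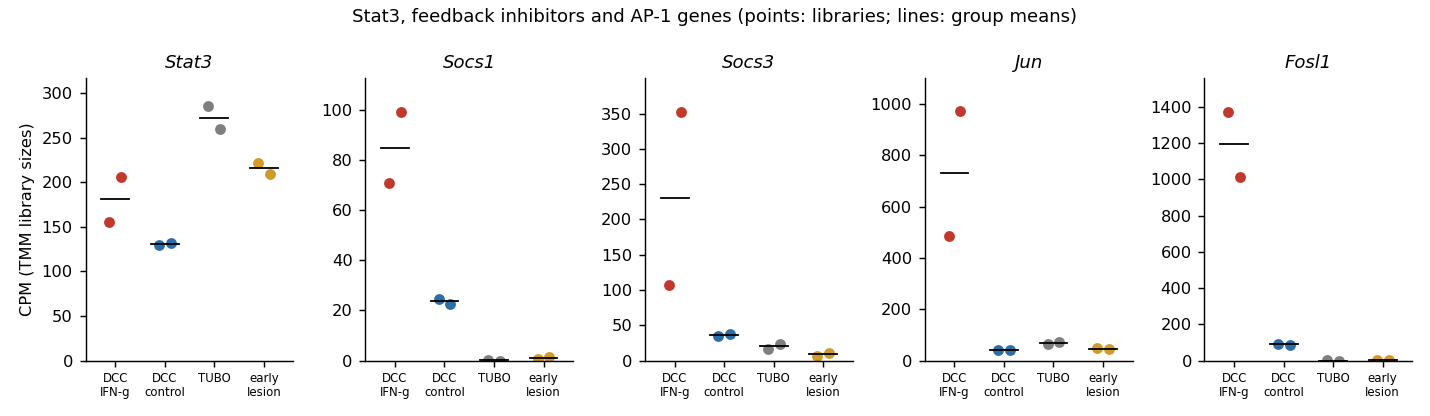
Levels in CPM of Stat3 (a transducer), Socs1 and Socs3 (feedback inhibitors) and Jun and Fosl1 (AP-1 subunits), 1 panel per gene with its own axis from 0. Points are single libraries and lines group means. Socs1, Socs3, Jun and Fosl1 are highest in DCC IFN-gamma, while Stat3 is highest in TUBO (285 and 259.6 CPM).

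In DCC control against early lesion, 1 of the 10 kinases and transducers was called higher and 4 lower, beside 19.1% and 18.7% of all genes tested. Jak1 measured 192 and 210.5 CPM in DCC control, against 100.5 and 95.7 CPM in early lesion (log2 fold change 1.04, edgeR adjusted p = 2.78e-04). Stat3 measured 129 and 132 CPM in DCC control, against 222 and 209.6 CPM in early lesion (log2 fold change -0.72, edgeR adjusted p = 0.00536). The Stat3 call ended without replicate 1 of DCC control and replicate 2 of early lesion (adjusted p = 0.106). So the group with the most gp130, Lifr and Osmr RNA had less Stat3 RNA than early lesion. Stat3 was also lower in DCC control than in TUBO, at 285 and 259.6 CPM (log2 fold change -1.06, edgeR adjusted p = 5.04e-04), where 1 of the 10 was called higher and 4 lower, beside 22.1% and 19.9% of all genes.

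Of the 10 feedback inhibitors 2 were called higher and 4 lower in DCC control than in early lesion. The shares over all genes tested were 19.1% and 18.7%. Socs1 measured 24.7 and 22.5 CPM in DCC control, against 0.795 and 1.25 CPM in early lesion (log2 fold change 4.55, edgeR adjusted p = 2.54e-04). Socs3 measured 34.9 and 38.2 CPM in DCC control, against 7.12 and 10.4 CPM in early lesion (log2 fold change 2.07, edgeR adjusted p = 0.0293). That Socs3 call was lost without any single library of these groups (adjusted p = 0.0774 to 0.216). Socs2, known best as an inhibitor of growth hormone signalling, was lower in DCC control, with 13.6 and 17.2 CPM against 342 and 312 CPM in early lesion (log2 fold change -4.40, edgeR adjusted p = 3.33e-05). Against TUBO 1 of the 10 was called higher and 5 lower in DCC control, beside 22.1% and 19.9% of all genes. There Socs2 measured 13.6 and 17.2 CPM in DCC control and 349 and 340.0 CPM in TUBO (log2 fold change -4.48, edgeR adjusted p = 2.85e-05).

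Of the 25 STAT3 targets, 12 were called higher and 6 lower in DCC control than in early lesion, and 10 higher and 8 lower than in TUBO. Over all genes tested 19.1% were called higher and 18.7% lower against early lesion, and 22.1% higher and 19.9% lower against TUBO. Timp1, an inhibitor of matrix proteases, measured 473 and 601 CPM in DCC control, against 1.21 and 0.0381 CPM in TUBO and 0.604 and 0.624 CPM in early lesion. Lcn2, an iron-carrying secreted protein of epithelial cells and neutrophils, was the reverse, with 24.6 and 18.5 CPM in DCC control, against 8125.5 and 8673.5 CPM in TUBO and 13162.6 and 11719.9 CPM in early lesion. Both genes were called in both comparisons (edgeR adjusted p = 3.95e-04 and 4.19e-04 for Timp1, 0.00152 and 0.00133 for Lcn2, against TUBO and early lesion in that order). The Lcn2 calls ended without replicate 2 of DCC control (adjusted p = 0.0692 and 0.0701). These targets thus differed in opposite directions between the same groups, next to the epithelial and stromal marker sums given above, whose part was not tested.

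Genes whose pattern over the 8 libraries was most like that of the family were ranked by Pearson correlation of log2 CPM with 10553 genes for Il6 and 10552 for the others, as a description. The libraries fall into 4 groups, so these correlations mostly reflect the group means. Lif was closest to Tgm2 and Ptk2b (r = 0.992 each), then Tnfaip8 and Sgms2 (r = 0.991 each). Tgm2, encoding a transglutaminase, averaged 309.5 CPM in DCC IFN-gamma and 22.7 CPM in DCC control, against 195 CPM in TUBO and 208 CPM in early lesion. Il6st was closest to Ahr (r = 0.997), Tcf4 (0.996), Rbfox2 (0.996) and Manea (0.993).

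Lifr was closest to another receptor of the family, Osmr (r = 0.994), and then to Mex3b (0.994), Fgfr3 (0.992) and Runx2 (0.990). Runx2, the transcription factor of bone-forming cells, averaged 79.8 CPM in DCC IFN-gamma and 335 CPM in DCC control, against 35.5 CPM in TUBO and 20.8 CPM in early lesion. Il6 was closest to Setd1a (r = 0.961), followed by Oas1a (0.935), Oasl1 (0.932) and Zbtb40 (0.932). With 0 to 39 counts of Il6 in a library, that ranking rests on few reads.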

How the data were processed

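The authors deposited 1 table of raw read counts per gene symbol. Per the submitters' processing notes, reads went through TopHat and HTSeq 0.6.1 on mm10. The library kit was Nugen Ovation Mouse RNAseq per the labels' protocols. Their annotation and strand setting are not given in the sources used here, which leaves overlapping and antisense genes uncertain. The 5 closing lines of unassigned reads, 35.2% to 63.7% of a library, stayed out of library sizes and tests.

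From the deposited counts, edgeR 4.0.16 (R 4.3.3; filterByExpr with a minimum count of 10, TMM, robust) fitted 1 model of 4 group means with 4 residual degrees of freedom and a common biological coefficient of variation of 0.416. SE is the log2 fold change over the square root of F. Floors cover counting error only.

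The family genes, gene lists, markers and motifs were chosen with earlier results of these data known. Named were all family genes and, per list and comparison, a part of up to 3 called genes a direction with a mean of at least 5 CPM in the higher group; that part was chosen after values were seen. Some genes of these lists are not reported here and not counted. Similar genes needed a mean of 10 CPM in a group. Correlations used a prior count of 2. Alternatives were RLE and upper quartile factors, other filters, a replicate block, fitting the compared groups alone, DESeq2 1.42.0, and leaving out libraries, 1 at a time or replicate 1 of DCC control with replicate 2 of early lesion.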

Additional observations from a re-analysis of the deposited data

How the results depend on the processing

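Over the 9 family genes and 4 comparisons, 375 of 423 recomputed values kept their direction and their side of the threshold, 23 lost a call, 18 gained a call and 7 changed sign. With other genes named in the text the counts were 924 of 1022, 68, 23 and 7. All sign changes were in values without a call. Il6 in DCC control against early lesion (0.54) was -0.05 with the replicate block, -5.72 (without replicate 1) to 1.56 with 1 DCC control library left out, and -5.63 without both replicate 1 of DCC control and replicate 2 of early lesion. In TUBO against early lesion, Il11 was 0.10 without both of those libraries. With 1 library left out at a time Il11 ran from -0.69 to 0.10 (without early lesion replicate 2), Il6st from -0.03 (without TUBO replicate 1) to 0.17 and Osmr from -0.08 (without TUBO replicate 1) to 0.27. Il6 had 12 and 0 counts in DCC control, so without replicate 1 no count was left in that group. The cause of the other sign changes was not tested.

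Family genes called in TUBO against early lesion numbered 1, but 2 with no filter, 2 with at least 50 counts in at least 2 libraries, 2 in a fit of only the groups compared, 3 in DESeq2, 0 without the pair of libraries named above, and 0 to 0 with any library left out. Without that pair 1654 genes were called after IFN-gamma, 4112 between DCC control and early lesion and 1944 between TUBO and early lesion, against 3656, 6441 and 4117 with all libraries; fewer samples entered that fit. With 1 library left out at a time these counts were 2020 to 4128, 4780 to 5516 and 2391 to 3118, and 5481 to 5797 in DCC control against TUBO. The lone library of a group was then assumed to vary like the other groups. Counts over all genes are not given for the other filters, the fit of only the groups compared and DESeq2. The family counts under those settings are therefore no result about the family. Family genes called with 1 library left out were 5 to 7, 6 to 6 and 6 to 6 in the 3 comparisons with DCC control.

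Deviations of same-numbered libraries from their group means correlated at 0.09, -0.43, -0.05 and 0.10 over 17069 genes in the 4 comparisons. Replicate numbers were therefore not taken as pairs. The value of -0.43 belongs to DCC control against early lesion, where the libraries with most reads outside genes carry opposite numbers. The part of those reads in it was not tested. A replicate block gave 3481, 6316, 6843 and 4013 called genes and 7, 8, 8 and 1 called family genes, Clcf1 being gained against DCC control (adjusted p = 0.0315) and TUBO (adjusted p = 0.0089). Upper quartile factors moved the median of all genes by 0.108 in DCC control against TUBO. Depth limits Il6 most, with 0 to 39 counts a library.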

Other observations

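Genes that handle the receptors or the ligand mRNAs were also compared between DCC control and the TUBO and early lesion groups. All 5 genes of receptor shedding and sorting were called lower in DCC control than in early lesion, beside 18.7% of all genes tested. Sorl1, a sorting receptor that can bind the interleukin-6 receptor, measured 2.68 and 0.594 CPM in DCC control, against 82.1 and 71.7 CPM in TUBO and 112 and 115 CPM in early lesion (edgeR adjusted p = 1.86e-04 and 1.33e-04). Rhbdf2 measured 4.14 and 3.64 CPM in DCC control, against 39.8 and 35.9 CPM in TUBO and 19.3 and 19.2 CPM in early lesion (edgeR adjusted p = 1.56e-06 and 1.73e-05). Against TUBO 3 of the 5 were called lower and none higher, beside 19.9% and 22.1% of all genes. Of the 13 regulators of the ligand mRNAs 3 were called higher and 3 lower in DCC control than in early lesion, and 2 higher and 3 lower than in TUBO, shares near those of all genes (37.7% and 42% in either direction). Fosl1 was among those called higher in both, with 93.6 and 86.1 CPM in DCC control, against 0.517 and 0.381 CPM in TUBO and 1.02 and 2.05 CPM in early lesion (edgeR adjusted p = 1.42e-07 and 3.71e-07).

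In TUBO against early lesion, 7 of the 25 STAT3 targets were called higher and 2 lower, beside 11.4% and 12.7% of all genes tested. Vegfa, the vascular growth factor, measured 243 and 246 CPM in TUBO, against 38.2 and 31.8 CPM in early lesion (log2 fold change 2.80, edgeR adjusted p = 6.16e-06). Junb, an AP-1 subunit, measured 188 and 221 CPM in TUBO, against 46.4 and 51.6 CPM in early lesion (log2 fold change 2.06, edgeR adjusted p = 8.54e-05).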
